A study of Mus musculus with 10 samples.

Results

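The nuclear-encoded genes of oxidative phosphorylation complexes I to V were followed in xenografts of human breast cancer cells that carry the estrogen receptor, grown in mice. They were chosen by symbol from probe sets that carried exactly 1 gene symbol: NDUFA, NDUFB, NDUFC, NDUFS and NDUFV genes, SDHA to SDHD, UQCR genes, COX4 to COX8 genes and ATP5 genes, with each gene read by its probe set of highest mean over the 10 arrays. This gave 83 of 19556 genes, read from 158 probe sets. Of these, 80 code for protein, with 35 in complex I, 3 in complex II (SDHA, SDHC and SDHD), 7 in complex III, 17 in complex IV and 18 in complex V. The other 3 (NDUFA6-DT, NDUFB2-AS1 and NDUFV2-AS1) are noncoding RNAs that share only the start of a symbol, and their values are given apart. The filter on dim probe sets kept 82 of the 83 genes and removed COX7B2.

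Tumor cells were collected by laser capture. A PCR step amplified their RNA ahead of hybridization to a human Affymetrix array. All mice were nu/nu females aged 20 weeks, a strain that lacks a thymus, and all had received an estrogen pellet. In the estrogen groups the pellet stayed in place, and in the withdrawn groups it was taken out for 1 week. The lymph node arrays came from mice 6, 11 and 14 under estrogen and mice 9, 10 and 19 after withdrawal, so n = 3 each. The primary xenograft arrays came from mice 11 and 14 under estrogen and mice 10 and 19 after withdrawal, so n = 2 each. The 6 mice were the replicates, 4 of them gave both sites, and the labels name the host mouse as organism and no cell line. In bulk RNA from captured cells, fewer cells of a type and less RNA per cell cannot be told apart.

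Complex I (NADH dehydrogenase) and complex II (succinate dehydrogenase) pass electrons from NADH and succinate to ubiquinone, complex III passes them on to cytochrome c, and complex IV (cytochrome c oxidase) reduces oxygen. Complexes I, III and IV pump protons out of the mitochondrial matrix, and complex V (ATP synthase) uses the returning protons to make ATP. Most subunits come from nuclear genes and a few from mitochondrial DNA, so the complexes are assembled from both.

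Values are log2 signals, and each comparison is given both on the deposited scale and after quantile normalization, which gives all arrays the same distribution. Array medians lay between 2.70 and 2.83, but the 99th percentile was 9.44 and 10.04 on the primary tumor arrays of mice 11 and 14 with estrogen and 11.39 to 11.67 on the other 8. The 18 hybridization control probe sets averaged 12.04 to 12.47 on 4 arrays, those of the mouse 11 and mouse 19 nodes and of the withdrawn primary tumors, while the remaining 6 read 9.47 to 10.59. In primary tumors this level and the pellet state cannot be told apart. The mean of 8 luminal markers was 7.70 and 7.84 on the estrogen-treated primary tumor arrays and 8.62 to 10.20 on the others, as deposited. The means of 8 leukocyte, 7 stromal, 7 muscle, 5 adipocyte and 4 endothelial markers stayed between 2.14 and 4.25 on every array. Single markers in these lists were brighter, with ACTA2 at up to 8.92, COL1A1 at up to 7.54 and CD79A at up to 6.52, while PTPRC, the pan-leukocyte marker, read 2.00 to 2.54. The muscle gene MB averaged 6.94 in estrogen-treated and 9.81 in withdrawn primary tumors, and 7.52 and 9.72 in the nodes. Called lower in estrogen-treated primary tumors as deposited were 3 of 8 luminal and 1 of 4 tested muscle markers (MB), beside 6.94% of all genes. The other 3 muscle markers lay higher there. In nodes under estrogen 4 of 8 luminal markers were called higher, beside 7.81% of all genes. Called lower in those nodes were 1 of 6 tested stromal and 1 of 4 muscle markers, beside 0.949% of all genes. The part of these markers in the results was not tested. Tests are limma fits with mouse as a random block, and p-values were adjusted by the Benjamini-Hochberg method over all 17170 genes tested, with a gene called at an adjusted p below 0.05.

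The subunit genes were among the brighter genes on these arrays. Of the 80 coding genes, 73 had a mean log2 signal of 4 or more. The 6 tested coding genes below 4 were NDUFA11 and the isoforms COX4I2, COX6A2, COX6B2, COX7A1 and COX8C, of which COX6A2 and COX7A1 are known from muscle and COX6B2 from testis. Those 5 isoforms and COX7B2 averaged 2.80 to 3.04 on the arrays as deposited, and none was called in any comparison on either scale. Their widely expressed counterparts COX4I1, COX6A1, COX6B1, COX7A2 and COX8A had mean signals of 11.93, 10.91, 9.93, 10.94 and 8.22.

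On the deposited scale every complex averaged lower in the estrogen-treated primary tumors than in the other groups. The mean over the 35 complex I genes was 9.84 ± 0.35 (SD, n = 3) in nodes with estrogen, 9.77 ± 0.17 (SD, n = 3) in withdrawn nodes, 8.04 ± 0.31 (SD, n = 2) in primary tumors with estrogen and 9.46 ± 0.04 (SD, n = 2) in withdrawn primary tumors. The 18 complex V genes averaged 11.45 ± 0.56, 11.49 ± 0.24, 9.56 ± 0.45 and 11.32 ± 0.05 in the same groups. After quantile normalization the complex I means became 9.59 ± 0.14, 9.44 ± 0.10, 9.10 ± 0.15 and 9.19 ± 0.01, and the complex V means became 11.15 ± 0.38, 11.14 ± 0.14, 10.83 ± 0.12 and 10.99 ± 0.02.

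**Figure D1:**
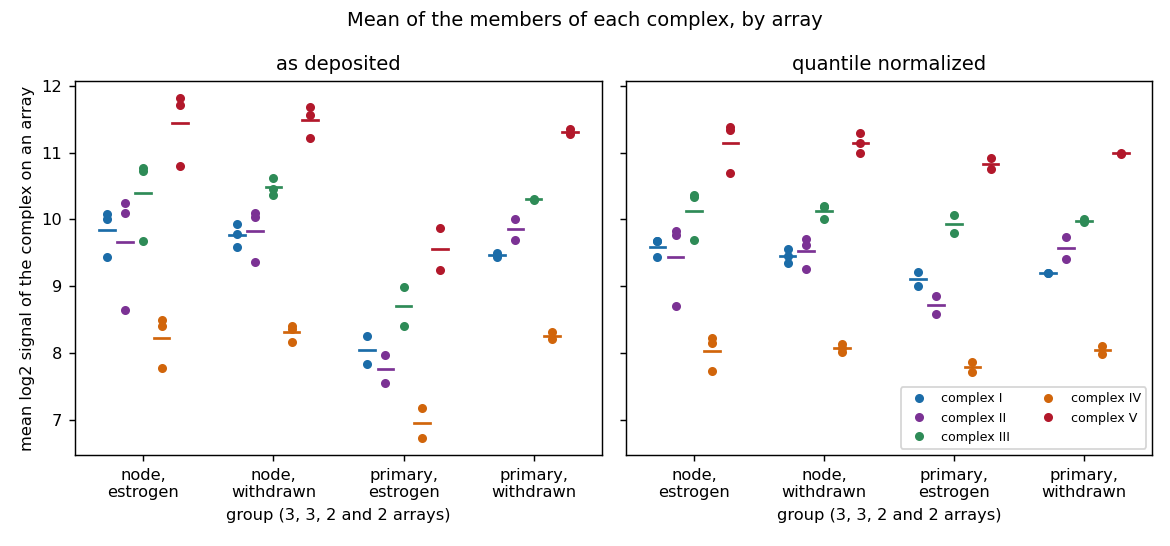
Mean log2 signal of the genes of each complex on each array, as deposited (left) and quantile normalized (right); points are arrays, bars are group means, and levels of different complexes are not comparable because they come from different probe sets. The estrogen-treated primary tumors lie lowest in all 5 complexes as deposited. After normalization complex II, a mean of only 3 genes, keeps the widest gap, with 8.59 and 8.85 on those arrays against 9.40 and 9.73 in withdrawn primary tumors.

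In primary tumors, 32 of the 82 tested genes fell with estrogen relative to withdrawal and 0 rose on the deposited scale. Over all genes tested, 6.94% were called lower and 0.879% higher, 7.82% in all. The median difference of the 82 genes was −1.79, against −0.10 over all genes tested. Calls lower numbered 11 of 35 in complex I, 2 of 3 in complex II, 3 of 7 in complex III, 7 of 16 in complex IV and 9 of 18 in complex V, with median differences of −1.75, −2.14, −1.53, −1.61 and −2.07. After quantile normalization 1 gene was called higher and 0 lower, beside 0.757% of all genes called higher and 0.582% lower, 1.34% in all. The median of the 82 genes was then −0.22, against 0.06 over all genes, and 15 of the 82 genes had an unadjusted p below 0.05, beside 3658 of all 17170, a share no lower than that of the subunit genes.

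The 32 calls depended on single arrays. Without a node array the calls numbered 16 (mouse 6), 11 (mouse 10), 20 (mouse 9), 33 (mouse 19), 42 (mouse 14) or 58 (mouse 11). In the same order, 629, 452, 857, 1328, 1751 and 3168 of all 17170 genes were called lower. A lone primary tumor array left in a group was assumed to vary like the other groups.

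Bright genes as a whole were lower too on the deposited scale. Among the 847 genes tested with a mean log2 signal over 10, 58.2% were called lower in estrogen-treated primary tumors, and among the 42 subunit genes of that level 27 were (64.3%). The median difference was −1.90 for those 847 genes and −1.98 for the 42. At a mean of 8 to 10, 19.7% of 1692 genes and 5 of 26 subunit genes (19.2%) were called lower, with medians of −1.31 and −1.49. After normalization the medians over 10 were −0.19 for all genes and −0.30 for the subunit genes, and from 8 to 10 they were −0.08 and −0.44.

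**Figure D2:**
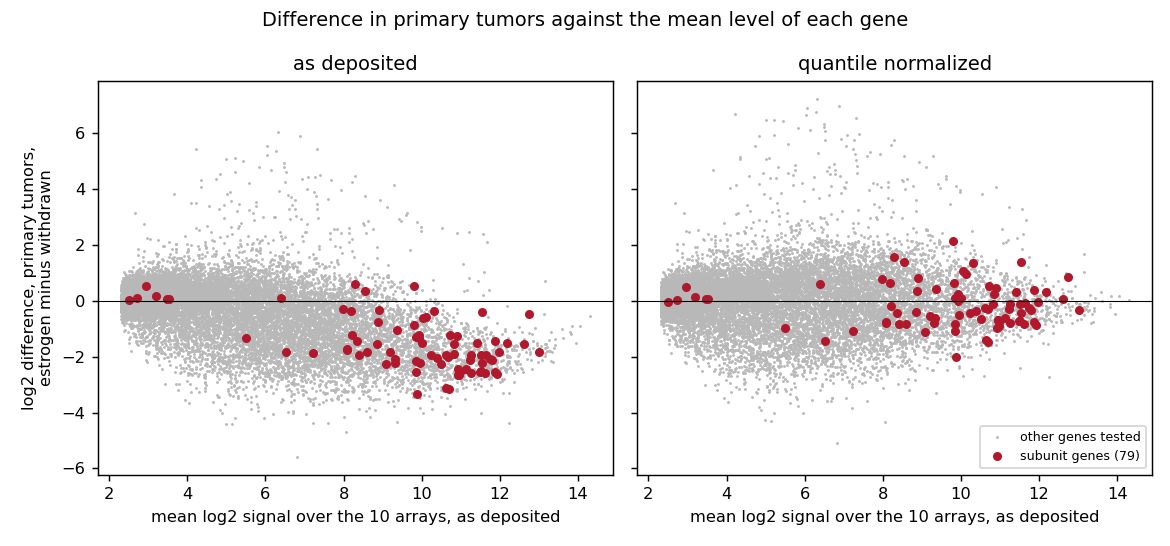
Log2 difference in primary tumors (estrogen minus withdrawn) against the mean log2 signal of each gene as deposited, with the 79 tested coding subunit genes in red and all other genes tested in grey, for deposited (left) and quantile-normalized (right) values. On the deposited scale the cloud of all genes falls with rising level and the subunit genes lie within it, at a median of −1.98 above a level of 10, while after normalization that median is −0.30.

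Complex II showed the same direction in all its measured genes on both scales. SDHA, the flavoprotein that oxidizes succinate, read 9.52 and 10.33 in the estrogen-treated primary tumors and 12.04 and 12.08 after withdrawal. These groups did not overlap, the fold was 4.4, and the difference was −2.14 (SE 0.34, adjusted p = 0.0141). SDHC, a membrane anchor, read 7.07 and 7.73 against 9.68 and 9.67, a difference of −2.29 (SE 0.41, adjusted p = 0.0189). The other anchor, SDHD, read 6.06 and 5.86 against 7.34 and 8.29, a difference of −1.86 that was not called (SE 0.95, adjusted p = 0.259). After normalization the differences were −0.32 for SDHA, −1.14 for SDHC and −1.10 for SDHD, with adjusted p of 0.478, 0.104 and 0.427. The groups of all 3 genes remained apart, but 26.8% of all genes also lay wholly lower with estrogen on that scale, and 38.3% as deposited.

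In complex I the accessory subunits held all 11 calls, and none of the 6 measured nuclear core subunits was called. NDUFB3, an accessory subunit of the membrane arm, read 9.28 and 10.04 with estrogen and 11.72 and 11.45 after withdrawal, a 3.81-fold difference (log2 −1.93, SE 0.29, adjusted p = 0.0136). NDUFS5, another accessory subunit, read 8.99 and 9.87 against 11.48 and 11.59 (log2 −2.11, SE 0.33, adjusted p = 0.0137). Neither gene's groups overlapped, and after normalization the differences were −0.10 for NDUFB3 and −0.31 for NDUFS5 (adjusted p of 0.834 and 0.478). The core subunits differed from each other in sign on the normalized scale. NDUFV1, which binds NADH and carries the flavin, NDUFS7 and NDUFS8, which carry iron-sulfur clusters near the ubiquinone end, were at 0.96, 0.56 and 0.82, while the cluster-bearing NDUFS1 and NDUFV2 and the core subunit NDUFS3 were at −0.96, −0.81 and −0.81. None of these 6 was called on that scale, where their adjusted p lay between 0.375 (NDUFS3) and 0.632 (NDUFS7). NDUFV3, a small accessory subunit beside NDUFV1, stood highest of all members after normalization, with 10.35 and 10.50 against 8.36 and 8.24 (log2 2.10, SE 0.71, adjusted p = 0.145).

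Complex III held partners on opposite sides. UQCRC1 and UQCRC2, the paired core proteins, differed by 0.33 and −2.23 as deposited and by 1.36 and −0.65 after normalization (adjusted p of 0.229 and 0.602 on the latter scale). UQCRC1 read 8.02 and 8.66 with estrogen against 7.21 and 6.73, and UQCRC2 read 9.95 and 9.52 against 10.09 and 10.64, all normalized. UQCRH, the hinge protein near cytochrome c1, was called at −2.64 (SE 0.60, adjusted p = 0.0354) as deposited and stood at −0.90 after normalization (adjusted p = 0.292). UQCR10 was called at −1.52 (SE 0.37, adjusted p = 0.0418) and changed sign to 0.30 after normalization (adjusted p = 0.602). UQCRB, a small subunit near the ubiquinone site, had the most negative difference of all members on both scales, −3.34 (SE 0.85, adjusted p = 0.0491) and −2.02 (SE 0.65, adjusted p = 0.134), and was named for that after its values were seen; 2 of its 3 probe sets had the same sign.

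In complex IV the 7 calls lower took in COX4I1, the regulatory subunit that binds ATP. COX4I1 read 9.69 and 10.54 with estrogen and 12.84 and 12.63 after withdrawal, a 6.13-fold difference (log2 −2.62, SE 0.50, adjusted p = 0.0218), and all 4 of its probe sets had that sign. COX7A2, the widely expressed form of subunit 7A, differed by −2.43 (SE 0.42, adjusted p = 0.0177), with 3 of 4 probe sets of the same sign. COX6B1 and COX8A were called at −1.21 (SE 0.28, adjusted p = 0.0374) and −1.22 (SE 0.30, adjusted p = 0.0444). COX6A1 at −1.29, COX7B at −1.93 and COX7A2L, a supercomplex assembly factor, at −3.12 were not called (adjusted p of 0.0576, 0.0728 and 0.0559). After normalization COX4I1, COX7A2, COX7B, COX8A and COX7A2L stood at −0.85, −0.68, −0.43, −0.18 and −1.40, and COX6B1 and COX6A1 stood at 0.22 and 0.46, with none called.

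Complex V held 9 of the calls as deposited and the 1 gene called after normalization. ATP5MJ, a small membrane subunit, read 9.13 and 10.17 with estrogen and 12.20 and 12.14 after withdrawal (log2 −2.52, SE 0.40, adjusted p = 0.0141). ATP5F1E, the epsilon subunit, and ATP5PF, a stalk subunit, differed by −2.54 and −2.16 (SE 0.45 and 0.38, adjusted p of 0.0189 and 0.0179). ATP5IF1, the inhibitor that stops the enzyme from running in reverse, was called at −2.60 (SE 0.60, adjusted p = 0.0362). After normalization these 4 genes stood at −0.73, −0.75, −0.84 and −0.81, with none called.

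The 3 genes for the c subunit, the ring that turns as protons pass, encode the same mature protein and read differently. ATP5MC3 read 11.21 and 12.33 with estrogen and 13.59 and 13.58 after withdrawal, as deposited, and fell by 1.82 on the log2 scale (SE 0.34, adjusted p = 0.0211). ATP5MC1 read 10.04 and 10.93 against 11.06 and 10.71 with overlapping groups, a difference of −0.41 (SE 0.32, adjusted p = 0.475). ATP5MC2 read 12.36 and 12.04 against 12.65 and 12.67, a difference of −0.46 (SE 0.21, adjusted p = 0.205), with all 9 probe sets of the same sign. After normalization ATP5MC1 read 11.81 and 12.03 against 10.67 and 10.41 and was called higher (2.59-fold, log2 1.37, SE 0.26, adjusted p = 0.0455). ATP5MC2 stood at 0.85 (adjusted p = 0.121) and ATP5MC3 at −0.33 (adjusted p = 0.427) on that scale. Differences between these genes were not tested. In the F1 part, ATP5F1D, the delta subunit, was at 0.60 as deposited and 1.55 after normalization, where its groups did not overlap (8.03 and 8.08 against 6.83 and 6.16, adjusted p = 0.352).

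Groups that did not overlap were common in primary tumors, where 2 arrays stood against 2. As deposited, 64 of the 82 tested genes had both estrogen-treated arrays below both withdrawn ones and 6 had them above, beside 38.3% and 22.6% of all genes. After normalization the counts were 36 below and 20 above, beside 26.8% and 31.1% of all genes. The 20 above included NDUFV3, NDUFA9, UQCRC1, UQCR11, ATP5F1D, ATP5MC1 and ATP5MC2, and all 3 noncoding RNAs.

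**Figure D3:**
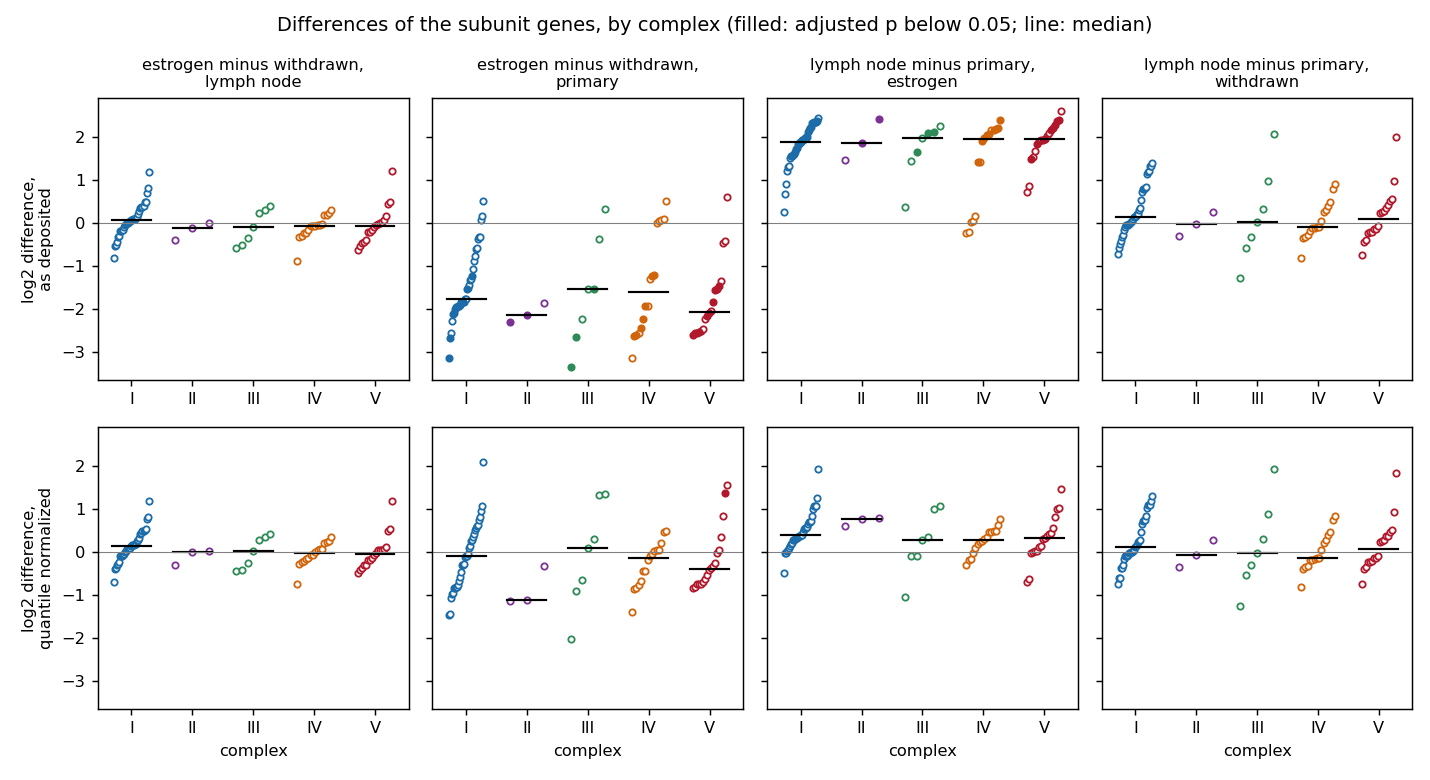
Log2 differences of the 79 tested coding genes by complex in 4 comparisons, as deposited (top) and quantile normalized (bottom); each point is a gene, filled where the adjusted p was below 0.05, and the bar is the median of the complex. The 32 and 41 calls of the middle columns appear only in the top row, and ATP5MC1 is the filled point of the bottom row.

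In lymph nodes no subunit gene was called between estrogen and withdrawal on either scale, and 0% of all genes were. No subunit gene had an unadjusted p below 0.05 in this limma fit on either scale, against 1002 of all genes as deposited and 1115 after normalization. The median difference of the 82 genes was −0.03 as deposited and 0.03 after normalization, and the smallest adjusted p among them was 0.859 and 0.781. The most positive differences as deposited were those of ATP5F1D and NDUFV3, at 1.21 (SE 0.72) and 1.19 (SE 0.53), and the most negative was that of COX7A2L at −0.89 (SE 0.68). Their groups overlapped. For ATP5F1D the node arrays with estrogen read 9.98, 11.44 and 8.05 in mice 6, 11 and 14, and the withdrawn ones read 8.40, 9.11 and 8.33 in mice 9, 10 and 19. As deposited, 2 genes lay wholly higher (NDUFA11 and ATP5MC1) and 2 wholly lower (COX6B1 and ATP5MC2) with estrogen, beside 4.47% and 5.46% of all genes. After normalization 4 lay wholly higher and 2 wholly lower, beside 5.47% and 5.63% of all genes. ATP5MC1 read 12.28, 12.32 and 12.35 with estrogen against 11.61, 12.10 and 11.91 (log2 0.44, SE 0.26, adjusted p = 0.927).

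Between sites under estrogen, 41 of the 82 genes were higher in lymph nodes than in primary tumors and 0 were lower on the deposited scale. Over all genes tested, 7.81% were called higher and 0.949% lower, 8.76% in all. The median difference was 1.92, against 0.26 over all genes, and calls numbered 18 of 35, 2 of 3, 3 of 7, 9 of 16 and 9 of 18 in complexes I to V. After quantile normalization 0 subunit genes were called, beside 0.0757% of all genes called higher and 0.384% lower, 0.46% in all, and 9 subunit genes had an unadjusted p below 0.05, beside 2082 of all 17170 genes, about the same share. The normalized median was 0.35, against 0.02 over all genes. This comparison shares its primary tumor arrays with the pellet comparison above, and 27 genes were called in both.

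The 41 calls became 15 without the node array of mouse 6 and 66 without that of mouse 11, beside 351 and 3502 of all 17170 genes called higher. Without the primary tumor array of mouse 11 the median difference was 1.61. Only COX6B1, NDUFB11, NDUFB3, NDUFB4, NDUFS5 and SDHA were called whichever 1 of the 10 arrays was left out. Some of these fits left 1 primary tumor array in a group. A limma fit on the 5 arrays of these groups alone called 0 subunit genes and 0 of all genes. In it 53 subunit genes had an unadjusted p below 0.05, beside 3111 of all 17170 genes. Among genes with a mean over 10, 67.9% of all genes and 29 of 42 subunit genes (69.0%) were called higher. From 8 to 10, 25.2% of all genes and 11 of 26 subunit genes (42.3%) were.

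NDUFB11, an accessory subunit of the complex I membrane arm, read 11.40, 11.42 and 11.31 in the nodes and 8.97 and 9.46 in the primary tumors (log2 2.16, SE 0.25, adjusted p = 0.0055). NDUFA3, another accessory subunit, differed by 2.24 (SE 0.31, adjusted p = 0.00679). SDHA read 12.49, 11.96 and 12.54 against 9.52 and 10.33 (log2 2.41, SE 0.31, adjusted p = 0.00679). No node array of these 3 genes overlapped a primary tumor array. UQCR10 differed by 2.09 (SE 0.34, adjusted p = 0.0104), COX6A1 by 2.39 (SE 0.32, adjusted p = 0.00679) with 2 of its 4 probe sets of that sign, and COX6B1 by 1.91 (SE 0.26, adjusted p = 0.00679). ATP5MK, a small membrane subunit of ATP synthase, differed by 2.37 (SE 0.36, adjusted p = 0.0084). The genes with the least evidence of a difference included ATP5F1A, the alpha subunit of the F1 part, at 0.86 (SE 1.03, adjusted p = 0.685), UQCRC2 at 0.38 (SE 0.74, adjusted p = 0.813) and NDUFS1 at 0.68 (SE 0.93, adjusted p = 0.721). On the normalized scale NDUFB11, NDUFA3, SDHA, COX6A1, COX6B1 and ATP5MK stood at 0.40, 1.08, 0.61, 0.63, 0.46 and 0.57, all uncalled.

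Groups were apart for 61 of the 82 genes in the direction of higher in nodes and for 3 in the direction of lower, as deposited, beside 28% and 9.98% of all genes. After normalization these counts were 19 and 5, beside 13.6% and 14.3%. NDUFB5, an accessory subunit of complex I, had the most positive normalized difference at 1.93 (SE 0.43, adjusted p = 0.109), with 7.11, 7.07 and 7.13 in the nodes and 4.70 and 5.65 in the primary tumors. Within mouse 11 the median of the 82 genes was 1.63 higher in the node as deposited and 0.20 higher after normalization, and within mouse 14 it was 1.88 and 0.38 higher. With the arrays of low hybridization controls alone, 2 nodes against 2 primary tumors, the medians were 2.18 and 0.55.

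After withdrawal no subunit gene was called between nodes and primary tumors on either scale, and 0% of all genes were. In this limma fit 12 of the 82 genes had an unadjusted p below 0.05 as deposited, against 1723 of all genes, and 9 after normalization, against 1440. The median differences were 0.12 and 0.05. The complex III core proteins stood at the ends of the range. UQCRC1 read 9.13, 9.76 and 8.67 in the nodes and 7.40 and 6.84 in the primary tumors, a difference of 2.06 (SE 0.53, adjusted p = 0.258). UQCRC2 read 9.30, 9.32 and 9.68 against 10.46 and 10.95, a difference of −1.27 (SE 0.74, adjusted p = 0.635). Groups did not overlap for either. NDUFV1 differed by 1.39 (SE 0.68), NDUFA3 by 1.19 (SE 0.31), NDUFA7 by 1.14 (SE 0.25) and COX6B1 by 0.92 (SE 0.26), with adjusted p of 0.547, 0.26, 0.205 and 0.298. ATP5F1D stood at 2.00 (SE 0.82, adjusted p = 0.464). As deposited, 24 of the 82 genes lay wholly higher in nodes and 11 wholly lower, beside 20.8% and 10.2% of all genes. Within mouse 10 the median of the 82 genes was 0.31 higher in the node as deposited, and within mouse 19 it was −0.10.

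The estrogen response of the subunit genes differed between sites by a median of 1.65 as deposited, nodes minus primary tumors, and of 0.23 after normalization. Over all genes tested the medians were 0.15 and −0.02. Bright genes as a whole differed too as deposited. At a mean over 10 the medians were 1.78 for all genes and 1.90 for the subunit genes, and from 8 to 10 they were 1.10 and 1.53. After normalization they were 0.12 and 0.32 over 10, and −0.04 and 0.32 from 8 to 10. No subunit gene was called on either scale, beside 0.0116% and 0.00582% of all genes, and 44 and 4 of the 82 genes had an unadjusted p below 0.05 in this limma fit, beside 1862 and 1088 of all 17170 genes. NDUFS5 had the smallest adjusted p as deposited, at 2.16 (SE 0.43, adjusted p = 0.153), followed by SDHA at 2.15 (SE 0.44), NDUFB3 at 1.83 (SE 0.38) and ATP5MJ at 2.31 (SE 0.52), each with an adjusted p of 0.163. Without the node array of mouse 11 the calls numbered 43, all higher, beside 1442 of all 17170 genes called higher. Without the primary tumor array of mouse 14 the median was 1.82. A test of the difference that left out the node array of mouse 11 on the normalized scale called 0 subunit genes, with a median of 0.44.

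The position of complex II within arrays had the widest range, but it is a mean of only 3 genes. The means of complexes I, III, IV and V took in 34, 7, 11 and 18 genes. A mean of fewer genes can vary more for that reason alone, so these ranges do not rank the complexes. Relative to the mean of the 73 coding genes with a signal of 4 or more on the same array, its 3 genes lay at −1.18 and −1.12 on the estrogen-treated primary tumor arrays and at −1.24 on the node array of mouse 11, after normalization. On the other 7 arrays they lay between −0.94 and −0.35. As deposited the estrogen-treated primary tumors lay at −0.88 and −0.98 and the mouse 11 node at −1.33, and the withdrawn node of mouse 19, at −1.01, lay below both primary tumors. After normalization the range across the 10 arrays was 0.37, 0.89, 0.34, 0.57 and 0.22 for complexes I to V. The mean of the 73 genes includes the genes of each complex, so a complex with many genes is drawn toward it. These positions carry no test.

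The node array of mouse 11 differed from the other 5 node arrays in a gene-by-gene way. This pattern was noticed after the values were seen and is given as a description with no test. On the normalized scale it held the lowest of the 6 node values for 39 of the 73 coding genes with a mean of 4 or more and the highest for 15, beside 37.3% and 31.2% of all 9546 genes of that level. ATP5F1A read 7.54 on it and 9.30 to 10.90 on the other node arrays, and UQCRC2 read 7.33 against 8.86 to 9.70. In the other direction, NDUFS8 read 11.30 against 8.45 to 9.37, ATP5F1D read 11.26 against 7.69 to 9.61, and NDUFV3 read 11.78 against 8.46 to 10.58. ATP5F1A and ATP5F1D are both F1 subunits of ATP synthase, so subunits of a single enzyme lay on opposite sides on this array, by 2.60 below and 2.80 above the mean of the other nodes. The mouse 14 node array also stood apart on the normalized scale. It held the highest node value for 33 of the 73 genes and the lowest for 7, beside 21.4% and 16.6% of all genes of that level.

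The deviations on the mouse 11 node array went along with the differences between primary tumors. Across the 73 genes, the deviation of the mouse 11 node array from the other node arrays and the normalized estrogen-minus-withdrawn difference in primary tumors had a Pearson correlation of 0.78 (Spearman 0.77). It was 0.80 when the primary difference used mouse 14 as the only estrogen-treated tumor. Over the 9473 genes of that level that are not members the correlation was 0.70. The same measure for the other 5 node arrays lay between −0.79 (mouse 9) and 0.27 (mouse 19), but their reference mean includes the mouse 11 array and the 6 deviations sum to 0, so negative values are partly built in and are no separate contrast. Genes share each array's RNA, amplification and normalization, and are not independent replicates. Luminal markers averaged 8.64 on this array after normalization, against 9.19 to 9.82 on the other nodes, and 8.61 and 8.79 on the estrogen-treated primary tumor arrays; their part in the pattern was not tested.

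**Figure D4:**
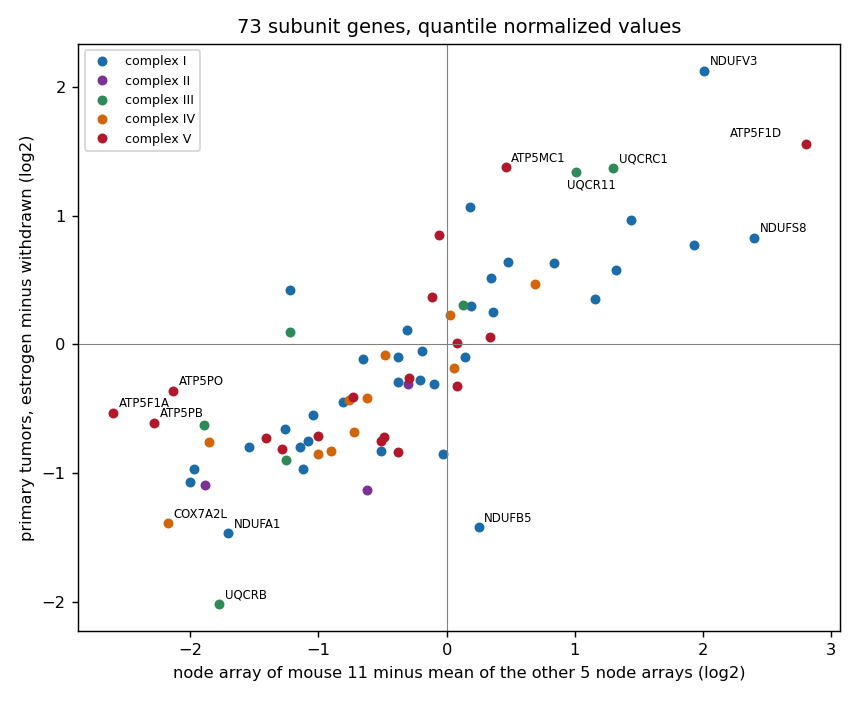
For the 73 coding genes with a mean of 4 or more, the log2 deviation of the mouse 11 node array from the mean of the other 5 node arrays (horizontal) against the log2 difference in primary tumors, estrogen minus withdrawn (vertical), both quantile normalized and colored by complex. ATP5F1D, NDUFV3 and NDUFS8 lie at the upper right and UQCRB, COX7A2L and NDUFA1 at the lower left, with a correlation of 0.78.

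**Figure D5:**
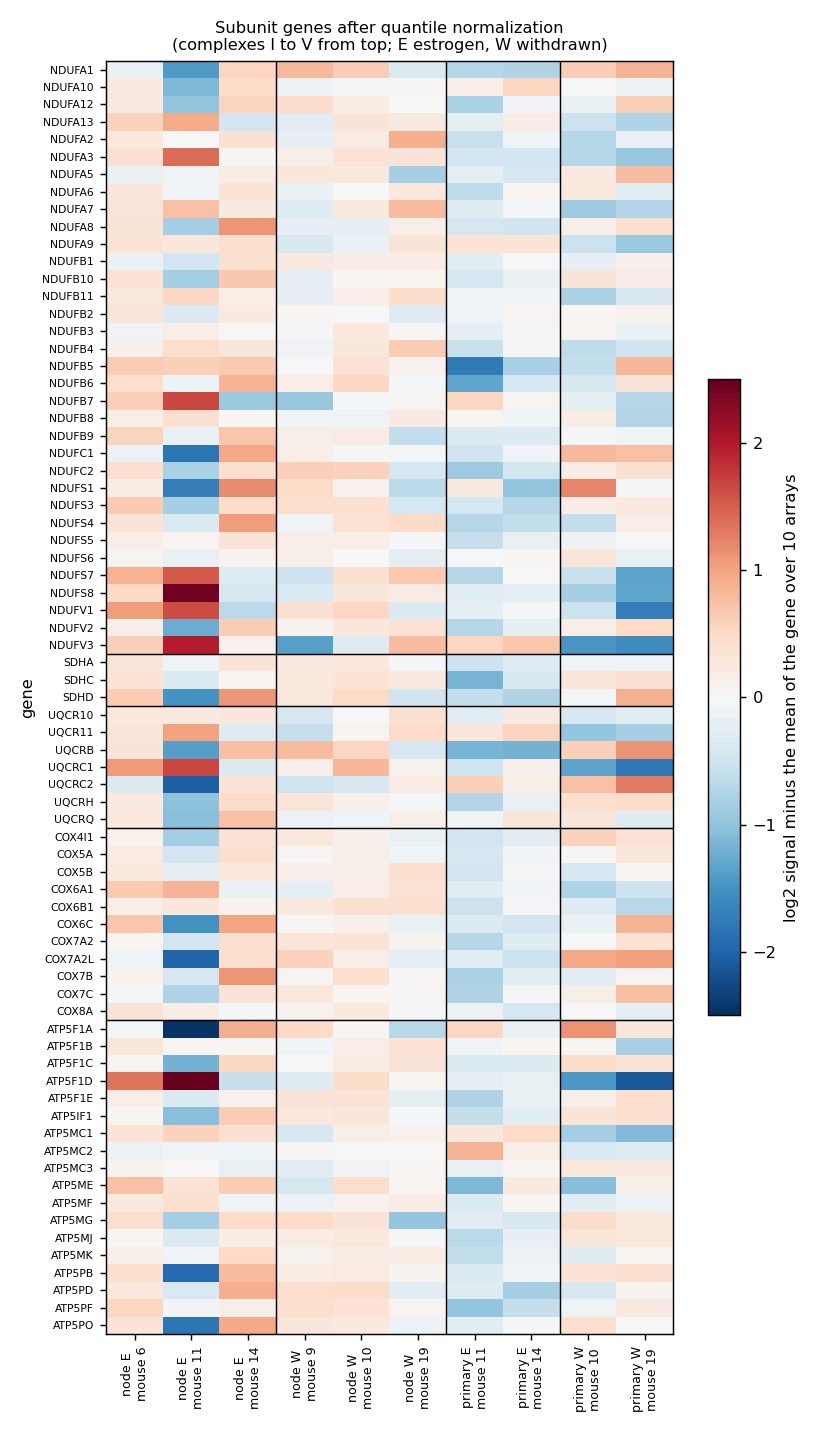
Quantile-normalized log2 signal of the 73 coding genes with a mean of 4 or more, each minus its own mean over the 10 arrays (blue lower, red higher, color scale ending at 2.5 either way), with genes in rows by complex and arrays in columns by group. The node array of mouse 11 holds wide departures in both directions, with ATP5F1A at 7.54 and ATP5F1D at 11.26, and NDUFV3 is low in both withdrawn primary tumors.

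The 5 transcripts of mitochondrial DNA with a usable probe set gave mixed values. As deposited, COX1, the catalytic core of complex IV, read 11.44 and 12.44 in the estrogen-treated primary tumors and 13.69 and 13.80 after withdrawal, and fell by 1.81 (SE 0.36, adjusted p = 0.0244). COX3, another complex IV core subunit, differed by −0.56 (SE 0.21, adjusted p = 0.13), ND2 and ND6 of complex I by −1.64 (SE 0.57) and −0.62 (SE 0.40), and ATP6 of complex V by −0.02 (SE 0.26), none of them called. The ATP6 probe set read 2.49 to 3.08 on all arrays, close to the array medians. Between sites under estrogen, ND2 was called 2.95 higher in nodes (SE 0.53, adjusted p = 0.0135) and COX1 1.56 higher (SE 0.33, adjusted p = 0.0245). After normalization none of the 5 was called in any comparison, and their median differences were −0.09 between primary tumors and 0.15 between sites under estrogen. Polyadenylated transcripts of mitochondrial DNA can share sequence with nuclear copies, which these values do not separate.

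Genes that build or feed the complexes were counted from lists, to be read against the 6.94% of all genes called lower in estrogen-treated primary tumors and the 7.81% called higher in nodes under estrogen. Brighter genes were called more often, as given above, and the lists were not split by level. Of 47 assembly factors tested, 6 were called lower in estrogen-treated primary tumors and 0 higher, with a median of −0.88. They included TIMMDC1, a complex I assembly factor (−2.08, SE 0.29, adjusted p = 0.0115), COX16 and COA4, which act in complex IV assembly (−1.64 and −1.54, adjusted p of 0.0123 and 0.034), and SURF1, also of complex IV (−2.11, adjusted p = 0.0282). Between sites under estrogen 11 assembly factors were higher in nodes, with TIMMDC1 at 2.49 (SE 0.27, adjusted p = 0.00465), COX16 at 1.89 (adjusted p = 0.00572), COA4 at 2.25 (adjusted p = 0.00745) and ATPAF2, which assembles the F1 part of ATP synthase, at 1.60 (adjusted p = 0.0097). After normalization 0 of the 47 were called in any of the 5 comparisons, and their medians in these comparisons were 0.04 and 0.19.

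Of 19 electron carrier genes, 5 were called lower in estrogen-treated primary tumors and 3 higher in nodes under estrogen as deposited, and 0 after normalization. CYCS, cytochrome c itself, differed by −1.81 (SE 0.42, adjusted p = 0.0376) and NDUFAB1, the mitochondrial acyl carrier protein that is also a complex I subunit, by −2.67 (SE 0.61, adjusted p = 0.0358). ETFA, a subunit of the electron transfer flavoprotein, and SQOR, which feeds electrons from sulfide to ubiquinone, differed by −2.48 and −2.09 (adjusted p of 0.0308 and 0.0203). CYC1, cytochrome c1 of complex III, was not called between primary tumors (−1.27, SE 0.38, adjusted p = 0.0742) and was called 2.05 higher in nodes under estrogen (SE 0.35, adjusted p = 0.0114). After normalization CYCS, NDUFAB1 and CYC1 stood at −0.07, −0.88 and 0.44 between primary tumors.

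Of 16 tricarboxylic acid cycle and pyruvate dehydrogenase genes, 3 fell in estrogen-treated primary tumors as deposited (PDHX at −2.73, SUCLG1 at −1.87 and IDH2 at −1.47, with adjusted p of 0.0273, 0.0183 and 0.0392). Under estrogen 4 were higher in nodes: CS, citrate synthase, at 2.17, IDH2 at 1.84, PDHX at 2.22 and SUCLG1 at 1.93, with adjusted p of 0.0101, 0.0128, 0.0355 and 0.0097. Of 12 adenine nucleotide and metabolite carriers, only SLC25A5, which exchanges ADP for ATP across the inner membrane, was called in these comparisons, at −1.91 (adjusted p = 0.0216) and 1.70 (adjusted p = 0.0182), and 1 of 12 is close to the share over all genes. After normalization 0 genes of these lists were called in any comparison.

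Among 24 biogenesis regulators tested, 3 were called lower in estrogen-treated primary tumors as deposited: YY1 at −2.32 (SE 0.34, adjusted p = 0.0122), the mitochondrial DNA binding protein SSBP1 at −1.75 (SE 0.36, adjusted p = 0.0271) and the fusion protein MFN2 at −1.96 (SE 0.43, adjusted p = 0.0324). Under estrogen 5 were higher in nodes, led by PHB2 at 2.13 (SE 0.20, adjusted p = 0.00319) and YY1 at 2.33 (SE 0.31, adjusted p = 0.00679). The coactivators PPARGC1A and PPARGC1B read 2.25 to 2.70 and 2.44 to 3.62 on the arrays. ESRRA and NRF1, transcription factors of respiratory genes, differed by 0.31 (SE 0.34) and 0.05 (SE 0.24) between primary tumors and by 0.47 (SE 0.28) and 0.46 (SE 0.20) between nodes, none called. MYC differed by 1.95 (SE 0.57, adjusted p = 0.572) between nodes and 1.03 (SE 0.69, adjusted p = 0.394) between primary tumors. After normalization 0 of the 24 regulators were called in any comparison. Their median between primary tumors was −0.35 as deposited and 0.32 after normalization. ESRRA, NRF1 and MYC then stood at 1.02, 0.60 and 1.46 between primary tumors and at 0.59, 0.59 and 2.06 between nodes. As deposited, TFAM values were as follows. TFAM, the mitochondrial DNA packaging factor, read 5.36, 2.79 and 5.95 in nodes with estrogen and 5.96, 5.69 and 2.64 in withdrawn nodes, so its low values lay in mice 11 and 19 and its groups overlapped.

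The 3 noncoding RNAs had mean signals of 3.21, 2.39 and 2.38 (NDUFA6-DT, NDUFB2-AS1 and NDUFV2-AS1) and lay higher with estrogen in primary tumors. They differed by 0.63, 0.80 and 0.52 as deposited and by 0.61, 0.79 and 0.51 after normalization, none called (adjusted p between 0.115 and 0.399 as deposited). Genes of that low level were at a median of 0.11 as a whole.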

How the data were processed

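The authors deposited log2 signals of 61359 probe sets for 10 arrays. Partek and RMA are named, per the submitters' processing notes, and their versions are not given in the sources used here. The arrays nevertheless differed in range, so quantile normalization over all probe sets was run beside the deposited values. Probe sets were named from the platform annotation, where 44532 had 1 symbol and 1492 several. Each gene took its probe set of highest mean, and genes at or above the 25th percentile of probe set means (log2 2.311) were tested. Differences were fitted with lmFit and eBayes of limma 3.58.1 (R 4.3.3), with 1 mean per group and mouse as a random block, since 4 mice gave both sites. The consensus correlation was −0.0415, and the correlations within mice 10, 11, 14 and 19 were 0.176, −0.208, −0.21 and 0.0831. Adjusted p-values are Benjamini-Hochberg over 17170 genes. The fits were tested on simulated data. Arrays give no counts, and their number limits the precision.

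The genes described and the 9 pathway lists were chosen with earlier results of these data known, so their counts and medians carry no test. Named genes were those called where 5 or fewer were, otherwise the 2 lowest and the highest moderated t per complex, the 8 largest absolute t per comparison, and fixed isoforms, core subunits and regulators, while genes outside this rule were named after their values were seen. Alternatives covered normalization, the choice of probe set, the filter, the block, the arrays fitted, the variance prior, the hybridization control level and each array left out.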

Additional observations from a re-analysis of the deposited data

How the results depend on the processing

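In primary tumors the 32 calls became 1 (higher) after quantile normalization. Calls lower numbered 20 with the mean of all probe sets of a gene, beside 582 of all 17170 genes. With only the groups compared they numbered 51, beside 3357 of all genes. The hybridization control level as a covariate gave 54 calls (1 higher, 53 lower), beside 964 and 4670 of all genes. Normalization without the node array of mouse 11 gave 6 (3 higher, 3 lower), beside 798 and 1095 of all genes. That added alternative was chosen after seeing the data. The median of −1.79 became −0.22, −1.20 and −2.32 under normalization, mean of probe sets and covariate, and −0.22 under the added alternative. The hybridization control level varied within the node groups only, and in primary tumors it cannot be told apart from the pellet state. Every covariate result that uses primary tumors therefore carries over the effect of this level seen among nodes. Between sites under estrogen the 41 calls became 0 after quantile normalization with or without the mouse 11 node array. A fit of only the groups compared called 0 of them, and 0 of all genes. Calls numbered 67 with the covariate, 42 with equal medians and 28 with the mean of probe sets, beside 4006, 1430 and 735 of all genes called higher. The median of 1.92 became 2.06, 1.96 and 1.33 in these, 0.35 after quantile normalization and 0.55 under the added alternative. The covariate gave 7 calls between sites after withdrawal (3 higher, 4 lower, beside 311 and 767 of all 17170 genes, so near background). It gave 45 for the difference of responses (all higher, beside 3036 of all genes), whose median of 1.65 became 2.29. That median was 0.23 after quantile normalization, 1.72 with equal medians, 1.06 with the mean of probe sets and 0.44 under the added alternative. The causes were not tested.

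Leaving out each array gave medians of −1.87 to −1.51 in primary tumors and 1.61 to 2.18 between sites under estrogen. They were 1.43 to 2.04 for the difference of responses, −0.24 to 0.18 between node groups and 0.04 to 0.19 between sites after withdrawal. Leaving out each node array gave 11 to 58 calls in primary tumors, beside 452 to 3168 of all 17170 genes called lower. Between sites under estrogen it gave 15 to 66, beside 351 to 3502 of all genes called higher. The difference of responses had 0 to 43, beside 0 to 1442 of all genes called higher. Between node groups and between sites after withdrawal there were 0 calls. ATP5MC1 reversed in primary tumors to 1.37 (1.38 under the added alternative), COX6B1 to 0.22 (0.23) and UQCR10 to 0.30 (0.31), and ATP5MC1 between sites under estrogen to −0.04 under the added alternative. Without the replicate block the calls were 32, 42, 0, 0 and 0, so no count moved by over 1.5 times. Of the 32 calls in primary tumors, 26 kept their sign after quantile normalization, as did 39 of the 41 between sites. A fit of only the groups compared gives no value for the difference of responses, which uses all groups.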
